A study of Homo sapiens with 4 samples.

Results

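TMPRSS2, SLC45A3, NDRG1 and HERPUD1 are 4 genes whose androgen-driven promoters and first exons are joined to an ETS transcription factor gene in prostate tumors. They were chosen by name as such 5′ fusion partners, 4 of the 20162 protein-coding genes of the annotation. On hg19 (GRCh37), TMPRSS2 lies at chr21:42836227-42903043, SLC45A3 at chr1:205626979-205649637 and NDRG1 at chr8:134249418-134314265, all on the minus strand, and HERPUD1 lies at chr16:56966054-56978776 on the plus strand. The chromatin described here is each gene with 50 kb on either side. These surroundings held 36 of the 60752 H3K27Ac peaks found with DHT, 33 of the 57623 found with vehicle, and 7 of the 20955 TCF7L2 peaks.

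The study mapped ChIP-seq peaks in LNCaP, an androgen-sensitive line from a human prostate cancer. One H3K27Ac library came from passage 20 cells that were grown in charcoal-stripped serum and given 10 nM dihydrotestosterone (DHT) for 4 h, and 1 from passage 20 cells in stripped serum with ethanol vehicle. The TCF7L2 library came from passage 15 cells in serum that was not stripped, so TCF7L2 is compared with acetylation by position only. Each condition had 1 library, so nothing measured how far cultures differ, heights are set side by side without a test, and an input library was not analysed here.

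Charcoal stripping removes steroid hormones from serum, and DHT is a potent natural androgen. H3K27Ac is a histone mark of active enhancers and promoters. TCF7L2 is the DNA-binding factor at the end of the Wnt pathway, and it also binds with other factors in epithelial cells. In a TMPRSS2 fusion the ETS gene comes under the control of the chromatin in front of the partner gene, which is why that chromatin is of interest in a line whose TMPRSS2 is not fused to ERG. TMPRSS2 encodes a serine protease of the cell surface, SLC45A3 the membrane transporter prostein, NDRG1 a protein induced by hypoxia, stress and androgen, and HERPUD1 a membrane protein of the endoplasmic reticulum that takes part in the removal of misfolded proteins.

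The sequences below belong to the chromatin on which the comparisons turn, and all of them were found letter for letter in GRCh37. The first 2 are the 250 bases before the annotated starts of SLC45A3 (chr1:205649638-205649887, minus strand) and HERPUD1 (chr16:56965804-56966053, plus strand), from the RefSeq promoters of GRCh38.p14, in which 2 of the 4 genes were matched. Capitals mark GC boxes (GGGCGG or CCGCCC) in SLC45A3 and, in HERPUD1, an ER stress response element II, which is ATTGG and CCACG with 1 base between them. HERPUD1 also holds both forms of the GC box, which were left in lower case.
SLC45A3 promoter: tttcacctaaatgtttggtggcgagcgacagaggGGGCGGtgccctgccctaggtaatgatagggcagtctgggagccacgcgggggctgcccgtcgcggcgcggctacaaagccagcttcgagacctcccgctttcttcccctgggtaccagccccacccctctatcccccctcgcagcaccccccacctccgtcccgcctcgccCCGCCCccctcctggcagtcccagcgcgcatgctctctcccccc
HERPUD1 promoter: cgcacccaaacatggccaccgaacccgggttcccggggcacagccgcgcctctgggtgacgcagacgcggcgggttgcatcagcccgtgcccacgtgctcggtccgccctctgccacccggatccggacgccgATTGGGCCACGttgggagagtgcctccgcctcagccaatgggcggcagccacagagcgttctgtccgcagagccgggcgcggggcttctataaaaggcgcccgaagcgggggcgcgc

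SLC45A3 was the promoter of the 4 that stood highest with DHT over vehicle, and its 250 bases held 2 GC boxes. At least 1 was found in 42.6% of 35116 promoters of the same length, that of HERPUD1 included. The element in HERPUD1 began at position -117 from the start, and 18 of the 35116 promoters (0.0513%) held 1 on either strand. HERPUD1 is a known target of the ER stress response through this element. These motifs, like the others searched, were chosen after the peaks had been seen, and a match is a description of the letters, not of binding.

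The next 3 stretches lie in upstream chromatin that was higher with DHT, and capitals mark sites like the androgen response element, whose 2 arms, AGAACA and TGTTCT, stand 3 bases apart. A site was counted where at least 9 of the 12 arm bases matched. The TMPRSS2 stretch (chr21:42893380-42893628) is written on the plus strand and holds 2 sites with 9 matches, 13.3 and 13.5 kb upstream of the start. The SLC45A3 stretch (chr1:205672266-205672400) and the HERPUD1 stretch (chr16:56949765-56949799) each hold a site with 10 matches, 22.7 and 16.3 kb upstream.
TMPRSS2 upstream: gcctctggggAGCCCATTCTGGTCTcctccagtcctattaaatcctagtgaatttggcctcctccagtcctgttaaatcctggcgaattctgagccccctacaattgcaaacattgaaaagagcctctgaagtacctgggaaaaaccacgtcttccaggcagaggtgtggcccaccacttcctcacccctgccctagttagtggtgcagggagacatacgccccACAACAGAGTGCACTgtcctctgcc
SLC45A3 upstream site: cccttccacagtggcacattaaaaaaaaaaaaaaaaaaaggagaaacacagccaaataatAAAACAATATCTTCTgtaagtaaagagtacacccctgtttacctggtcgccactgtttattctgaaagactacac
HERPUD1 upstream site: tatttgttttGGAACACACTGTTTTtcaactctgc

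The last stretch (chr1:205600296-205600452, minus strand) is from the only TCF7L2 peak near SLC45A3, just inside the neighbouring ETS gene ELK4. Capitals mark a TCF7L2 form, CTTTGAT, whose middle lay 20.5 bp from the center of the peak.
ELK4 intron TCF7L2 peak: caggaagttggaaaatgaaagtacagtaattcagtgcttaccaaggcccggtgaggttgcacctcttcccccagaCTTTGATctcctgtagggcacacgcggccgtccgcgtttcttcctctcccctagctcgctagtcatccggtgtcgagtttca

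Every one of the 4 genes had an acetylated promoter in both conditions, as did 51.1% of protein-coding genes, and SLC45A3 had the broadest acetylation. A peak height is the largest pileup of sequenced tags that the caller found in the peak. The tallest peak near TMPRSS2 had 125 tags with DHT and 106 with vehicle. SLC45A3 had 165 tags with DHT and 167 with vehicle, but at different places. NDRG1 had 119 tags with DHT and 101 tags with vehicle, and HERPUD1 had 47 with DHT and 36 with vehicle. In the order of tallest peaks SLC45A3 therefore came first and HERPUD1 last in both lists. TMPRSS2 and NDRG1 between them were not separated, as their exact 95% Poisson intervals overlapped in both lists (104 to 149 and 98.6 to 142 tags with DHT, 86.8 to 128 and 82.3 to 123 tags with vehicle). The SLC45A3 interval overlapped that of TMPRSS2 with DHT (141 to 192) and lay above it with vehicle (143 to 194). These intervals cover counting error only.

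Peaks covered 82.1 kb of the SLC45A3 surroundings with DHT and 65.0 kb with vehicle, which is 66.9% with DHT and 53.0% with vehicle. By that share SLC45A3 stood in the top 0.0298% of protein-coding genes with DHT and in the top 0.0496% with vehicle. The surroundings include acetylation in the neighbours ELK4 and NUCKS1, so the breadth is that of the locus. Those of ELK4 were covered over 53.1% with DHT and 43.4% with vehicle. TMPRSS2 had 35.6 kb covered with DHT and 27.8 kb with vehicle (21.4% of its surroundings with DHT, the top 6.39% of genes, and 16.7% with vehicle, the top 11.2%). NDRG1 had 28.0 kb with DHT and 21.5 kb with vehicle, and HERPUD1 had 11.9 kb with DHT and 6.87 kb with vehicle. HERPUD1 was ordinary in this respect, at the top 30.9% of genes with DHT and the top 50.5% with vehicle. The covered length with DHT over that with vehicle was 1.28 at TMPRSS2, 1.26 at SLC45A3, 1.30 at NDRG1 and 1.73 at HERPUD1. Together the 4 genes had 158 kb with DHT and 121 kb with vehicle, a ratio of 1.30, beside 1.07 over the whole lists. More cells with the mark and more of the mark per cell cannot be told apart in such bulk chromatin.

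**Figure D1:**
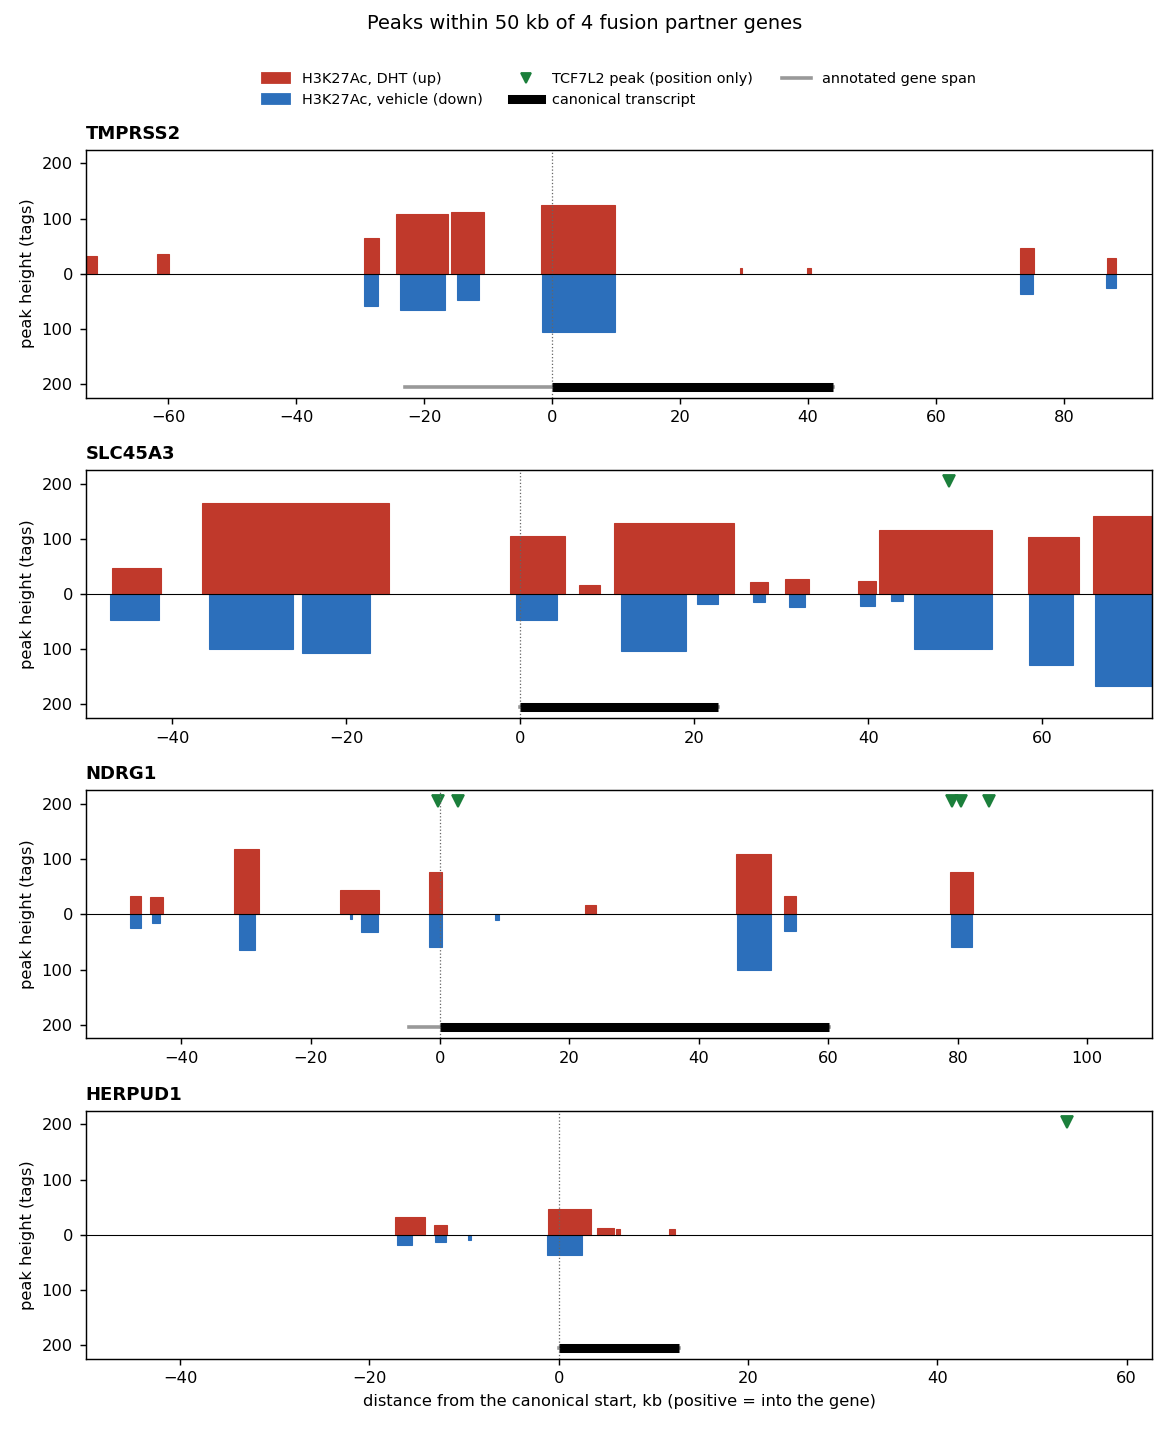
H3K27Ac peaks by distance from the canonical start in kb (positive into the gene), with height in tags upward for DHT and downward for vehicle, and TCF7L2 peaks as triangles by position only. SLC45A3 has 11 DHT and 13 vehicle peaks over much of its surroundings, while TMPRSS2 has no triangle and NDRG1 has 5; peaks at the edge are cut at the border of the surroundings.

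Peaks of the 2 H3K27Ac lists that shared at least 1 bp were merged into 1 stretch, and the tallest DHT height in it was divided by the tallest vehicle height. The 4 genes had 38 stretches, of which 27 held a peak in both lists. Of these, 8 were at least 1.5-fold higher with DHT, none was at least 1.5-fold lower, and 19 lay within 1.5-fold. With only the tallest 25000 peaks of each list, 5 of 20 were higher, and no share over the genome was computed for those shorter lists. With the full lists, 14.6% of the 49492 stretches of the genome with a peak in both were at least 1.5-fold higher and 6.7% at least 1.5-fold lower. By any amount 25 of the 27 were higher and 2 lower, where the genome had 57.1% higher and 37.3% lower. The median ratio was 1.27 around the 4 genes and 1.07 over the genome. The exact 95% interval of the ratio, which covers counting error alone, lay above 1 in 6 of the 27 stretches and below 1 in 0. No share over the genome was computed for this interval, so the 6 cannot be set against one. Each gene had at least 1 stretch that was 1.5-fold higher, as did 37.3% of 17987 genes with a shared stretch, and TMPRSS2, SLC45A3 and NDRG1 had 2 or more, as did 13.3% of genes. These 2 shares were not matched on the number of shared stretches, and a gene with more of them passes more easily. SLC45A3 had 10, NDRG1 8, TMPRSS2 6 and HERPUD1 3. Divided by the genome's median ratio, 6 of the 27 were 1.5-fold higher, beside 11.4% over the genome, and SLC45A3 kept only its promoter.

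Low stretches passed a fold of 1.5 more often than tall ones. Over the genome 23.9% of stretches with fewer than 20 vehicle tags were 1.5-fold higher, against 1.54% of those with 80 or more. Of the 8 higher stretches 5 had 40 or more vehicle tags. They were 5 of the 15 stretches of that height around the 4 genes, where 5.54% of 15324 such stretches over the genome were 1.5-fold higher.

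**Figure D2:**
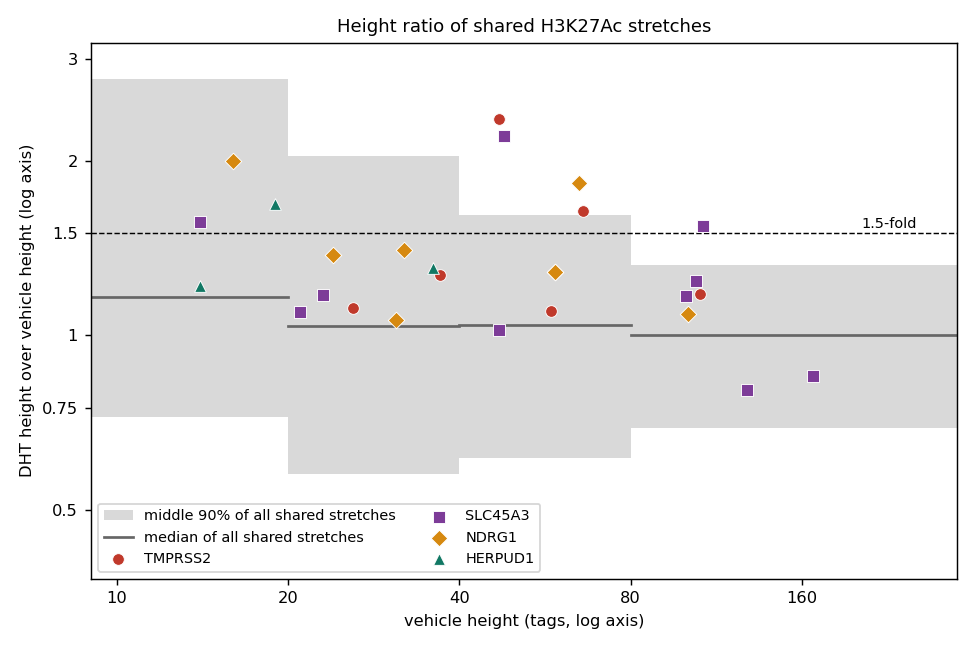
DHT height over vehicle height of the 27 shared stretches (points, log axis) against vehicle height in tags (log axis), over the middle 90% (grey) and the median (line) of all 49492 shared stretches in 4 classes of vehicle height. The 5 points above the grey band are 2 of TMPRSS2, 2 of SLC45A3 and 1 of NDRG1.

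The promoter of SLC45A3 had the highest ratio of the 4 promoters. Its stretch, 6.30 kb wide, had 106 tags with DHT (86.8 to 128 by counting) and 48 with vehicle (35.4 to 63.6), a ratio of 2.21 (1.56 to 3.17). The interval lay clear of that of TMPRSS2 below and overlapped those of NDRG1 and HERPUD1. The SLC45A3 ratio stood at percentile 99.5 of 10293 genes with a promoter stretch in both lists, of which 5.11% were at least 1.5-fold higher. In promoter height SLC45A3 was in the top 2.97% of all 20162 protein-coding genes with DHT and in the top 19.9% with vehicle. That ranking includes genes without a promoter peak, and 51.1% of the genes had a promoter stretch in both lists.

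TMPRSS2 had 125 tags at its promoter with DHT and 106 with vehicle, a ratio of 1.18 (0.903 to 1.54). This was the tallest promoter of the 4 in both lists. It was among the top 1.31% of all protein-coding genes by promoter height with DHT and the top 2.07% with vehicle. NDRG1 had 76 tags with DHT and 59 with vehicle, a ratio of 1.29 (0.905 to 1.84). HERPUD1 had 47 tags with DHT and 36 with vehicle, a ratio of 1.31 (0.828 to 2.07). Counting error alone spans 1 in these 3 ratios, and the median of all promoters was 1.14.

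The chromatin before the promoter of TMPRSS2 held the highest ratio around the 4 genes. The stretch 13.2 kb upstream of the canonical start (chr21:42890670-42895829) had 111 tags with DHT and 47 with vehicle, a ratio of 2.36 (1.66 to 3.40). Among 8074 stretches of like vehicle height it stood at percentile 99.02. An androgen-responsive enhancer is known in this part of the TMPRSS2 locus. The 2 sites printed above are among the 5 in the stretch 13.2 kb upstream, and whether they belong to that enhancer was not tested. The next stretch, 20.3 kb upstream, had 108 tags with DHT and 66 with vehicle, a ratio of 1.64 (1.19 to 2.26). It covers the outermost annotated start of TMPRSS2, 22.96 kb upstream of the canonical one, so both stretches lie inside the annotated gene or at its edge.

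Farther out, the stretch 28.3 kb upstream had 64 tags with DHT and 58 with vehicle, a ratio of 1.10. Peaks of 35 and 32 tags, 60.8 and 72.2 kb upstream, were listed with DHT alone. A stretch absent from a list fell below what the peak caller kept, which was 10 tags at the lowest with DHT and 9 with vehicle. Beyond the 3′ end, in the neighbouring MX1, an interferon-induced antiviral gene, 2 stretches had 47 and 29 tags with DHT and 37 and 26 tags with vehicle. Inside TMPRSS2, 2 low peaks of 11 and 10 tags were in the DHT list alone. TMPRSS2 had 4 stretches with DHT alone and none with vehicle alone.

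SLC45A3 had its tallest DHT peak upstream. A single DHT peak of 165 tags and 21.4 kb, centered 25.8 kb upstream and reaching into NUCKS1, which encodes a nuclear phosphoprotein, covered 2 vehicle peaks of 107 and 100 tags. The ratio of the tallest heights was 1.54 (1.20 to 1.99), at percentile 99.1 of 2845 stretches of like vehicle height. The width covered there was 21.4 kb with DHT and 17.5 kb with vehicle. Next to it, 44.3 kb upstream, NUCKS1 had a stretch of 48 tags with DHT and 47 with vehicle.

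Within SLC45A3 and on its 3′ side most stretches differed little. The stretch over the gene's 3′ part, 17.7 kb from the start, had 129 tags with DHT and 104 tags with vehicle, and a low one at 27.4 kb had 22 with DHT and 14 with vehicle, a ratio of 1.57 (0.769 to 3.32). The low one stood at percentile 82.7 of 10406 stretches of like vehicle height. A peak of 16 tags in an intron, 7.93 kb from the start, was in the DHT list alone. ELK4, the ETS gene that lies downstream of SLC45A3 and is found joined to it in chimeric RNA, had 117 tags at its promoter with DHT and 100 with vehicle. The 2 stretches that were lower with DHT around the 4 genes both lay in ELK4. They had 103 tags with DHT and 128 with vehicle (0.805, 0.615 to 1.05), and 142 tags with DHT and 167 with vehicle (0.85, 0.675 to 1.07). Counting error spans 1 in both, and the taller of them was the tallest vehicle peak near SLC45A3.

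NDRG1 had its tallest DHT peak 29.9 kb upstream of its start, in chromatin with no other protein-coding gene. It had 119 tags with DHT and 65 with vehicle, a ratio of 1.83 (1.34 to 2.52), at percentile 98.3 of 6531 stretches of like height. A lower stretch 43.8 kb upstream had 32 tags with DHT and 16 with vehicle, a ratio of 2.0 (1.07 to 3.90). Among 12321 stretches of like vehicle height it stood at percentile 91.8. With vehicle the tallest peak of NDRG1 was elsewhere, inside the gene 48.5 kb from the start, where the heights were 110 with DHT and 101 with vehicle. The stretch 12.4 kb upstream had 45 tags and 5.97 kb with DHT, and 32 tags and 2.94 kb in 2 peaks with vehicle. The other NDRG1 stretches with both peaks, 54.1 kb into the gene, 80.6 kb from the start in CCN4 and 47.0 kb upstream, had ratios of 1.06, 1.29 and 1.38 in that order. A peak of 17 tags was in the DHT list alone and 1 of 10 tags in the vehicle list alone.

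HERPUD1 was the least acetylated of the 4 genes. Its 1 higher stretch, 15.7 kb upstream at the end of SLC12A3, a transporter gene of the kidney, had 32 tags with DHT and 19 with vehicle, a ratio of 1.68 (0.926 to 3.14), so counting error alone spans 1. Among 10260 stretches of like vehicle height it stood at percentile 89.1. The stretch 12.5 kb upstream had 17 tags with DHT and 14 tags with vehicle. With DHT alone, 3 low peaks of 12, 10 and 11 tags lay inside the gene 4.94, 6.26 and 11.9 kb from the start, and a peak of 9 tags upstream was in the vehicle list alone.

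In all, 9 of the 36 stretches with a DHT peak around the 4 genes had no vehicle peak, where the genome had 17.3% of 59876. Of the 29 stretches with a vehicle peak 2 had no DHT peak, where the genome had 12.1% of 56306. Of the 9, the TMPRSS2 peaks of 35 and 32 tags stood in the top 33.7% and 37.1% of the DHT list, and the other 7 had 10 to 17 tags.

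**Figure D3:**
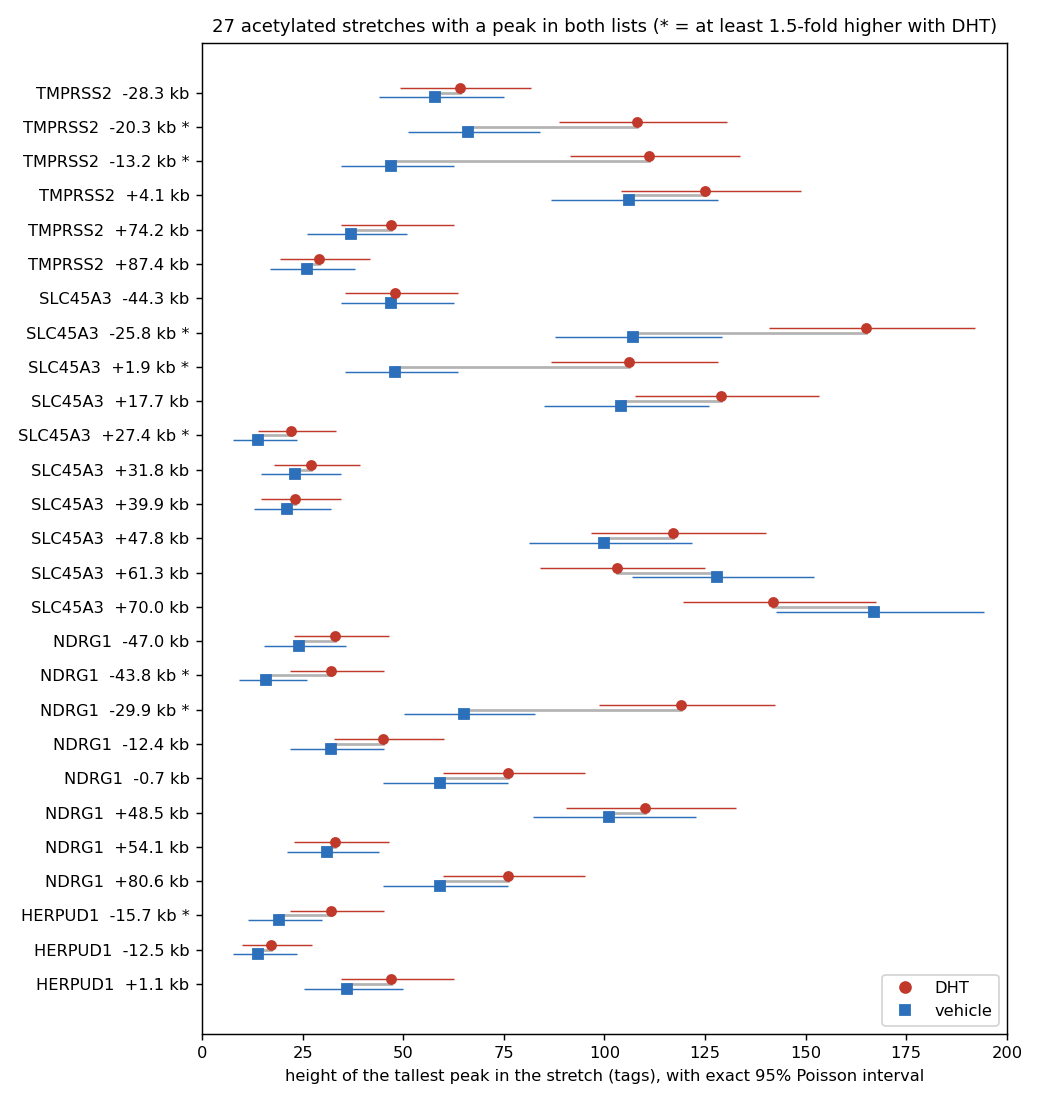
Tallest DHT peak (circles) and tallest vehicle peak (squares) in tags, with exact 95% Poisson intervals, in each of the 27 shared stretches, ordered by gene and by distance from the canonical start. The widest gaps are at TMPRSS2 13.2 kb upstream (111 with DHT, 47 with vehicle), the SLC45A3 promoter (106 with DHT, 48 with vehicle), SLC45A3 25.8 kb upstream (165 with DHT, 107 with vehicle) and NDRG1 29.9 kb upstream (119 with DHT, 65 with vehicle).

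The higher stretches lay mostly on the upstream side. Of the 11 shared stretches upstream of the promoters 6 were at least 1.5-fold higher with DHT, and the median ratio of the 11 was 1.54. After division by the genome's median ratio 5 of the 11 were higher. No share by side was computed over all genes after that division, so the 5 cannot be set against one. Of the 4 over promoters 1 was higher, and of the 12 inside or downstream of the genes 1 was higher, with a median ratio of 1.14. For all protein-coding genes counted in the same way, 11.5% of upstream, 5.14% of promoter and 13.2% of inside or downstream stretches were higher. Over all genes the upstream share was therefore not the highest of the 3. The sides of the 4 genes were compared after their values had been seen, and the stretches of 1 gene share a locus, so the counts are a description.

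**Figure D4:**
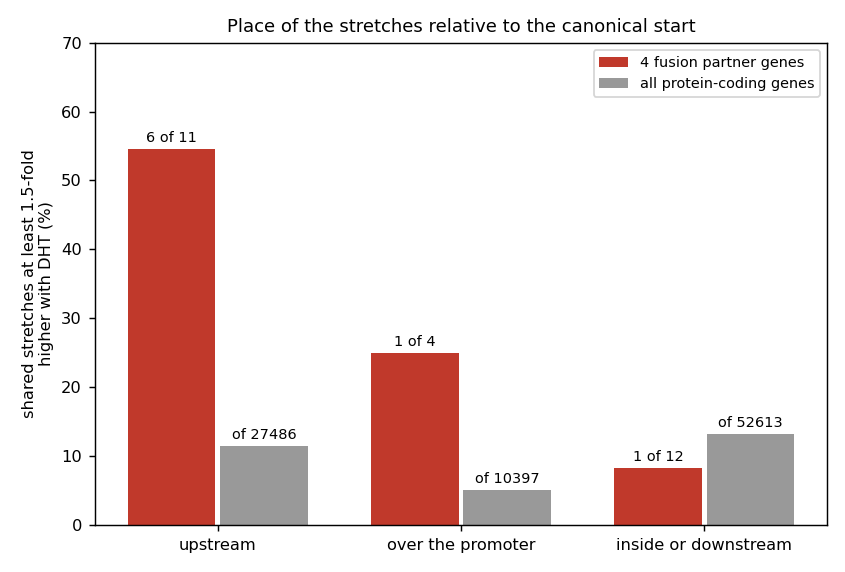
Percent of shared stretches at least 1.5-fold higher with DHT, by side of the canonical start, for the 4 genes (red) and for all pairs of a protein-coding gene and a stretch (grey). The red bars stand for 6 of 11, 1 of 4 and 1 of 12 stretches, and the grey bars for 11.5%, 5.14% and 13.2%.

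Sites like the androgen response element were about as dense in the higher stretches as elsewhere. They numbered 37 in the 8 higher stretches, 0.710 per kb, and 67 in the 19 stretches within 1.5-fold, 0.699 per kb. Over all acetylated stretches of the genome there were 0.746 per kb. The TMPRSS2 stretch 13.2 kb upstream held 5, while windows of its length at shared stretches held 3.70 on average and 32.5% held as many. HERPUD1 had the densest of the 8, with 5 sites in 3.18 kb, 3 of them with 10 matches. A match of this kind is frequent (95.8% of such windows held at least 1) and says nothing on binding.

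TCF7L2 was unevenly spread over the 4 genes. TMPRSS2 had no peak, SLC45A3 and HERPUD1 had 1 each and NDRG1 had 5. No TCF7L2 peak within 50 kb was also the case for 33.3% of protein-coding genes, and for 19.2% of 3832 genes that, like TMPRSS2, had a DHT peak of 100 or more tags. The nearest to TMPRSS2 was 147 kb away and had 49 tags. Of the 7 peaks 4 (57.1%, exact 95% interval 18.4 to 90.1%) overlapped an H3K27Ac peak, beside 34.5% of all TCF7L2 peaks.

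The NDRG1 promoter carried a TCF7L2 peak of 30 tags, 0.250 kb upstream of the start, under acetylation of 76 tags with DHT and 59 with vehicle. A second peak of 23 tags lay in an intron 2.83 kb from the start, outside acetylation. The other 3 were in CCN4, a gene known to respond to Wnt signals, and had 113, 34 and 20 tags. The one of 113 tags was in the top 7.58% of TCF7L2 peaks and, with the one of 34, lay in the acetylated stretch of 76 tags with DHT and 59 with vehicle.

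Near SLC45A3 the TCF7L2 peak was in ELK4, 0.745 kb from the ELK4 start and 49.2 kb from that of SLC45A3. It had 55 tags, under acetylation of 117 tags with DHT and 100 with vehicle. Near HERPUD1 it had 24 tags and lay 3.76 kb from the start of NLRC5, a regulator of MHC class I genes, and 41.3 kb from the nearest acetylated stretch.

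The TCF7L2 forms searched on both strands begin with CTTTG, and AA, AT, TA or TT follows. They occurred in 2 of the 7 peaks, the ELK4 peak of 55 tags printed above and the CCN4 peak of 113 tags, in both as CTTTGAT. In windows of 390 bp on all TCF7L2 peaks, the length of the ELK4 peak, 45.6% held a form and 16.7% held CTTTGAT. At 630 bp, the length of the CCN4 peak, the shares were 54.4% and 19.4%.

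Of the other 5′ partners of ETS fusions, 10 were listed and all were in the annotation, C15orf21 under a newer symbol. A promoter peak in both lists was found for 9, beside 51.1% of protein-coding genes. The median ratio of the 9 was 1.18, beside 1.14 for all genes with such a promoter. Of the 9, 3 were at least 1.5-fold higher with DHT, beside 5.11% of those genes, and 0 lower. FKBP5, a co-chaperone of steroid receptors, had 69 tags with DHT and 25 with vehicle. KLK2, a kallikrein protease of the prostate, had 161 with DHT and 97 with vehicle, and CANT1, a nucleotidase, had 17 with DHT and 11 with vehicle. The CANT1 heights are low, and no counting interval was computed for its ratio. Over the genome 23.9% of all shared stretches with fewer than 20 vehicle tags, promoters or not, were at least 1.5-fold higher. SLC45A3 with a ratio of 2.21 lay between FKBP5 (2.76) and KLK2 (1.66), while TMPRSS2, NDRG1 and HERPUD1 (1.18 to 1.31) lay among those within 1.5-fold. Of the other partners within 1.5-fold, HNRNPA2B1, an RNA-binding protein gene, had 114 tags with DHT and 98 tags with vehicle. C15orf21 was the only one of the 9 with a lower promoter height with DHT, at 112 tags with DHT and 136 tags with vehicle. The ratios of ACSL3, FOXP1, DDX5 and UBTF lay between 1.09 and 1.27, with 38 to 84 tags with DHT and 30 to 77 tags with vehicle. OR51E2, an olfactory receptor gene of prostate tissue, had no promoter peak. TCF7L2 lay within 50 kb of 8 of the 10, beside 66.7% of protein-coding genes, and 6 had a stretch at least 1.5-fold higher, beside 37.3% of genes with a shared stretch. Neither share was matched on acetylation or on the number of stretches, and FOXP1, 1 of the 6, had 40 shared stretches.

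Of the ETS genes to which these partners are joined, ERG, ETV1, ETV4, ETV5, FLI1 and ELK4, ELK4 alone had an acetylated promoter in both lists, as did 51.1% of protein-coding genes. ERG, the usual partner of TMPRSS2, had 49 tags with DHT and 52 with vehicle at its tallest peak within 50 kb. ETV1 had 11 TCF7L2 peaks, the tallest of 192 tags, and 62 tags of H3K27Ac with DHT against 48 with vehicle.

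The genes most like each of the 4 were taken by the distance between tallest heights within 50 kb over the 3 libraries, on a log2 scale with 1 tag added. For SLC45A3 these were PIK3CB (0.12), NDUFAF6 (0.14) and SGMS1 (0.17), and for HERPUD1 ZMYM2 (0.05), MTG2 (0.05) and ISCU (0.07). For NDRG1 they were TMOD1 and TSTD2 (both 0.07), which share peaks, and CERT1 (0.11). TMPRSS2, with no TCF7L2 peak, had none by this rule, which asked for a peak in all 3 lists.

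The cell line was checked by acetylated promoters. The luminal prostate genes KLK3, KLK2, KRT8, KRT18, FOLH1 and HOXB13, which are part of the marker list, each had one in both lists, and 0 of the 3 basal, 3 stromal and 2 leukocyte genes had one. Of the endothelial genes, CDH5 had 47 tags in each list and PECAM1 was not matched. The DHT list as a whole covered 138 Mb and the vehicle list 129 Mb, the median heights were 23 tags with DHT and 22 with vehicle, and the lists do not state how many reads each library had.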

How the data were processed

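The members and all gene lists were chosen with earlier results of these data known. By the study's methods, the authors mapped reads to hg19, for H3K27Ac with Bowtie 2 and for TCF7L2 with the ELAND pipeline, and called peaks in each library with Sole-search. The submitters' processing notes name CASAVA 1.8.2, Bowtie2 and BWA for every library. The deposited value is a signal, namely the height of a peak's pileup in whole tags, and whether the authors scaled it to read number is not given in the sources used here. Stretches of like vehicle height are those with 0.8 times the vehicle tags or more, up to the inverse of that factor. The total reads per library are not in the files, so intervals rest on heights alone, cover counting error only and leave out that a height is a maximum.

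Peaks were assigned to a gene when they overlapped its GENCODE 44 span (mapped to GRCh37) or 50 kb on either side, and to a promoter when they overlapped 1000 bp before to 100 bp after the start of its canonical transcript. Ratios carry exact conditional binomial 95% intervals. The genes named are the 4 members, neighbours under the peaks described, 10 other 5′ partners, 6 ETS genes, markers of luminal, basal, stromal, leukocyte and endothelial cells, and the 3 genes nearest each member in tallest heights. Part of the luminal marker list is not reported here. Overlap and merging were tested on simulated data. Alternatives covered the peaks used, merging, overlap, fold, scaling, promoter window and surroundings. Python 3.11.15, numpy 2.4.6, scipy 1.17.1, pyfaidx 0.9.0.4 and matplotlib 3.10.9 were used.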

Additional observations from a re-analysis of the deposited data

How the results depend on the processing

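Of 64 alternatives to 13 results, 50 gave about the same value, 14 moved it and 0 turned its direction. A count could only hold or move under the rule used, so the 0 carries no information for counts. The promoter ratios of the 4 genes held throughout. Every alternative but the scaling returned the same tags for them, so little was put to the test there. With the top 25000 peaks of each H3K27Ac list, stretches at least 1.5-fold higher with DHT numbered 5 of 20 in place of 8 of 27, those with DHT alone 5 and those with vehicle alone 0, and the covered length ratio was 1.5 at NDRG1 and 2.12 at HERPUD1. With surroundings of 10 kb there were 4 higher stretches of 13, 1 of 2 TCF7L2 peaks lay in acetylation, and the covered length ratio was 1.17 at TMPRSS2 and 1.5 at SLC45A3. With 100 kb there were 13 higher and 1 lower stretches of 42, and HERPUD1 had a covered length ratio of 1.39. A smaller fold, midway between 1 and 1.5, gave 14 higher stretches, and a fold of 2 gave 3. Fewer peaks, shorter or longer surroundings and another fold change these counts by construction. No share over the genome was computed for the shorter lists or the other folds. No paired analysis was possible because each condition had 1 library, and no library could be left out. Depth limits the low stretches most, where a few tags decide a ratio.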

Other observations

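KLK2 had 5 shared stretches within 50 kb, and all 5 were at least 1.5-fold higher with DHT. FKBP5 had 5 of 7 higher and 6 more stretches with DHT alone. OR51E2 had 0 of 6 higher and 3 at least 1.5-fold lower, and its tallest peak had 51 tags with DHT and 62 with vehicle. The C15orf21 surroundings were acetylated over 46.1% with DHT and 46.8% with vehicle, with tallest peaks of 177 tags with DHT and 175 with vehicle, and 0 of 9 shared stretches higher. ETV5 had 24 tags with DHT and 37 with vehicle at its tallest peak, and both of its 2 shared stretches were at least 1.5-fold lower. These genes were singled out after their values had been seen. Over the genome 14.6% of shared stretches were at least 1.5-fold higher with DHT and 6.7% at least 1.5-fold lower. Of stretches with a DHT peak, 17.3% had no vehicle peak.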
